A study of Mus musculus with 16 samples.

Results

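The 32 genes described here encode the enzymes, regulators and transfer proteins of cholesterol and fatty acid synthesis in mouse soleus, a postural hindlimb muscle rich in slow oxidative fibres. They were taken by name from a list of pathway genes. For each gene the brightest array probe matched to one of its RefSeq transcripts was used, and all 32 had a probe. Male mice breathed oxygen that was lowered gradually to 10% during the first week and held there during the second. There were 3 RNA samples of day 3, 3 of day 7, 4 of day 14 and 4 of day 0. All samples carry the same treatment label, day 0 included, and the sampling at day 0 stands at the start of the protocol. The study design gives 4 per day. Day 3 and day 7 are described from the 3 samples at hand. No strain, age, genotype or hour of sampling is given in the labels. Separate mice are not stated either, so p-values measure the spread between RNA samples, which may be partly technical.

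Cholesterol is built from acetyl-CoA through mevalonate, isoprenoid diphosphates, squalene and lanosterol. Several of the late steps consume molecular oxygen. Fatty acids are built from the same acetyl-CoA after its carboxylation to malonyl-CoA, and are then elongated, desaturated and placed into phospholipids. The SREBP transcription factors, encoded by Srebf1 and Srebf2, activate most of these genes when sterols are scarce, and the INSIG proteins hold them back in the endoplasmic reticulum when sterols are plentiful. In resting muscle these pathways run at a low rate compared with liver or fat.

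Promoters of 25 of the 32 genes, 30 in number, were in the RefSeq table for GRCm38.p6, each running from 250 bases before to 50 bases after a transcription start. The sterol element TCACNCCAC, searched on both strands, was in 2 of the members' 30 promoters (6.667%), against 1.242% of all 32851 promoters in the table. These were the promoters of Stard3 and Hmgcs1, which each passed the threshold in at least 1 comparison below. No other member had this element in the promoters at hand. Both are shown 5' to 3' with the element in capitals. The Stard3 promoter is chr11:98358118-98358417, plus strand, and its element starts at position -211 from the start site. The Hmgcs1 promoter is chr13:119690101-119690400, plus strand, and its element starts at -137.
Stard3: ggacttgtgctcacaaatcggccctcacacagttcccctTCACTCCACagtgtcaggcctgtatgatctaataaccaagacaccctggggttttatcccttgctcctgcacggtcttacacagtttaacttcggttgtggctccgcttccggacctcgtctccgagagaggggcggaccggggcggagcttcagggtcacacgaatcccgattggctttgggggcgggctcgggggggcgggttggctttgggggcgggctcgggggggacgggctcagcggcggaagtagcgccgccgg
Hmgcs1: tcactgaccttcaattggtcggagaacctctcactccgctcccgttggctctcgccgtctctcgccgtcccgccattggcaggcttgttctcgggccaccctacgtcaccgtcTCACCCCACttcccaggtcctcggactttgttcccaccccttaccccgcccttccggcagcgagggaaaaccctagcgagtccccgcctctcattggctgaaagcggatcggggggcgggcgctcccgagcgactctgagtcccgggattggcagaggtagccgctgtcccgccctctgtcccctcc

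The form NCACNCCAC, which takes in every match of the sterol element, was in 13.33% of the members' promoters and 6.216% of all promoters. The CCAAT box CCAAT, to which the SREBP partner NF-Y binds, was in 73.33% against 37.41%. The GC box GGGCGG, a site of SP1-type factors, was in 76.67% against 35.66%, and the E-box CACGTG in 13.33% against 7.15%. A match describes letters in this window, and binding was not measured.

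Each array carries the RNA of 1 sample, and levels are given as log2 intensity relative to the array's 75th percentile, so 0 is that percentile and 1 unit is a doubling. Levels of different genes come from different probes and are not compared. The 16 arrays lie on 2 slides. Slide 1 holds day 3, day 7 and day 0 samples 1 and 2, and slide 2 holds day 14 and all 4 day 0 samples. Slide 2 was dimmer, with a 75th percentile of 49.1 to 77.0 intensity units against 203 to 271 on slide 1, and 37.9 to 42.9% of its spots were well above background, against 48.3 to 55.3% on slide 1. The main fits therefore carry a slide term. In them the differences of days 3 and 7 from day 0 rest on the 2 day 0 arrays of slide 1. An alternative without those 2 arrays, given below for several genes, has no slide term. It sets days 3 and 7 on slide 1 against slide 2, so day and slide cannot be told apart there. The slow fibre markers Myh7 and Tnnt1 were well above background on all 16 arrays, at 10.2 to 10.8 and 10.2 to 10.7, while Tnni1 and Tnnc1 of the same list changed between days and are given with the other marker lists at the end. In tissue RNA, fewer cells of a type and less RNA per cell cannot be told apart.

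Of the 32 members, 21 were well above background on all 16 arrays and 28 on all 8 arrays of slide 1. The other end of the range was held by Lss, Cyp51, Hsd17b7 and Fads2, which were above background on no slide 2 array. Fads2, a desaturase of polyunsaturated fatty acid synthesis, was above background on 1 array and was not tested, which left 31 members. The comparisons with day 0 share their day 0 samples.

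Of the 31 tested members, 11 passed the threshold in at least 1 comparison and 20 passed in none. At day 3 against day 0, 5 of 31 members passed an adjusted p of 0.05, and 6.09% of all 22126 features did. Idi1 and Acly were higher at day 3 (all features: 2.27%), and Stard3, Lss and Lpcat3 were lower (all features: 3.82%). At day 7 against day 0, 7 of 31 passed, a share near that of all features, 23.8%. Hmgcs1, Mvk, Hsd17b7, Sc5d and Stard3 were higher at day 7 (all features: 15.6%), and Lss and Fasn were lower (all features: 8.14%). At day 14 against day 0, 2 of 31 passed, against 0.402% of all features. They were Stard3, higher (all features: 0.294%), and Lpcat3, lower (all features: 0.108%).

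At day 7 against day 3, both on slide 1, 2 of 31 passed, against 0.678% of all features. Stard3 was higher at day 7 (all features: 0.447%) and Elovl6 lower (all features: 0.23%). At day 14 against day 7, 1 of 31 passed, against 2.3% of all features (1.12% higher and 1.18% lower). That gene was Lss, for which no day 14 array was above background, so no fold is given. The median log2 difference of the 31 members was 0.28 for day 3, 0.05 for day 7 and 0.01 for day 14, each against day 0. The median over all features was 0.06, 0.09 and 0.06. For day 7 against day 3 the members' median was -0.15 and that of all features 0.05, and for day 14 against day 7 the medians were -0.07 and -0.04.

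**Figure D1:**
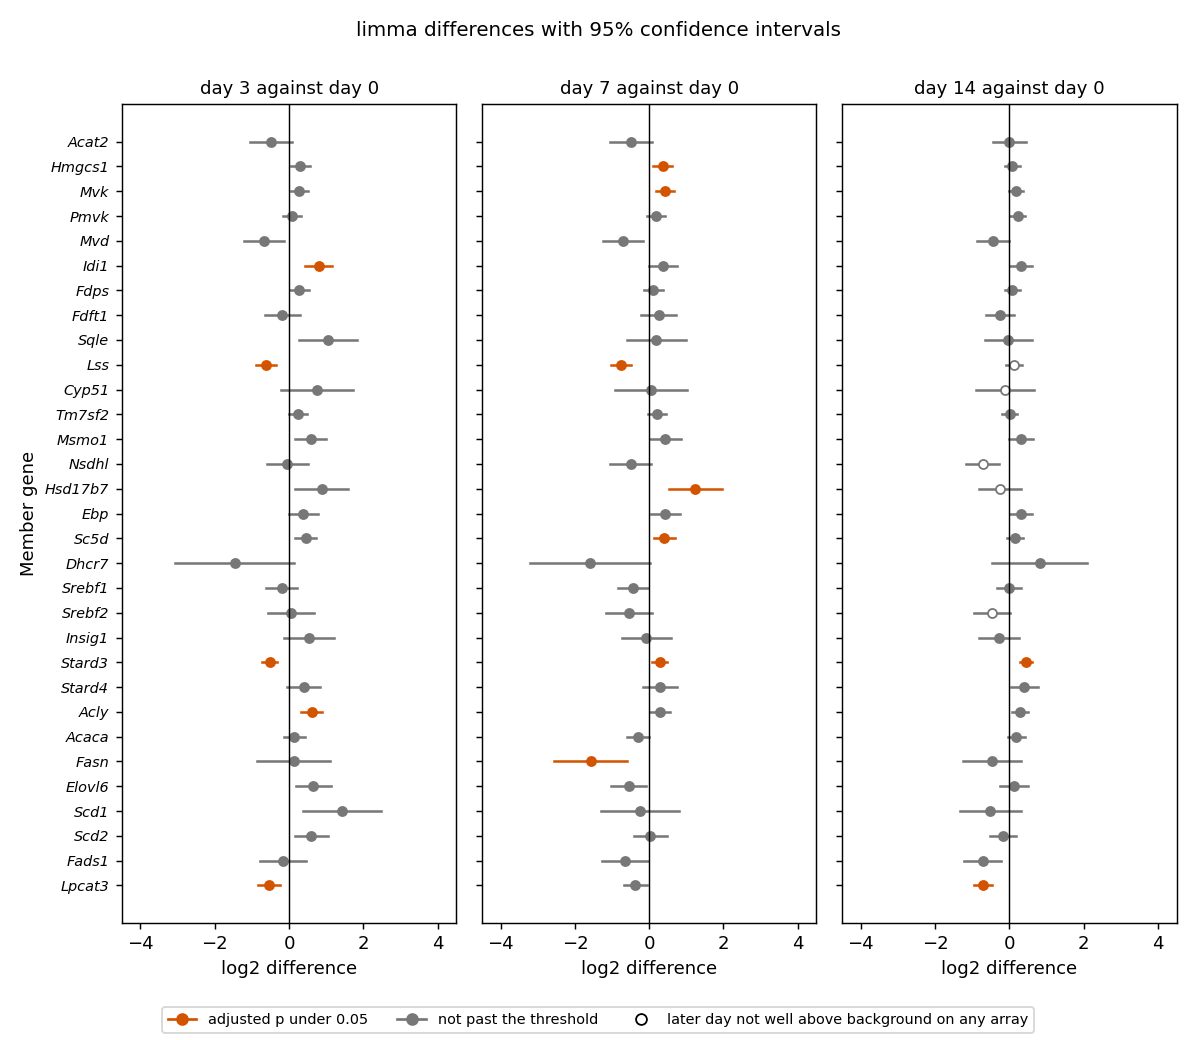
Differences of the 31 tested members from day 0 at days 3, 7 and 14. Points are limma log2 differences, later day minus day 0, lines are 95% confidence intervals, orange marks an adjusted p under 0.05, and open points mark genes not well above background on any day 14 array. Most intervals at day 14 lie near 0, while the day 3 panel has its largest positive values at Scd1 (1.42) and Sqle (1.04), neither past the threshold.

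The early sterol enzymes lead from acetyl-CoA to farnesyl diphosphate. At day 3, 1 of the 7 was higher and none lower (all features: 2.27% and 3.82%). At day 7, 2 were higher and none lower (all features: 15.6% and 8.14%). No early enzyme passed in any other comparison. Idi1, the isopentenyl diphosphate isomerase, had levels of 0.45, 0.45 and 0.79 at day 3 against -0.23 and -0.24 in the day 0 samples of the same slide. On that slide, day 7 had 0.29, 0.33 and -0.20. Day 14 had 0.51, 0.51, 0.40 and 0.32 on slide 2, against -0.10, 0.31, 0.26 and 0.03 in the day 0 samples there. All 3 day 3 values were above all day 0 values of slide 1, and at day 14 all 4 were above all day 0 values of slide 2 by a small margin. Idi1 rose at day 3 by 0.79 ± 0.17 (SE, adjusted p = 0.0256), a 1.73-fold difference, and the difference within slide 1 alone was 0.80. The day 14 difference of 0.31 ± 0.14 did not pass (adjusted p = 0.227). The day 3 call was lost without day 0 sample 1 (0.86), without day 0 sample 2 (0.73) and without day 3 sample 2 (0.85). It held in 8 of 12 processing alternatives, and the difference was smallest, at 0.44, without the slide 1 day 0 arrays, where the call was lost.

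Hmgcs1, the HMG-CoA synthase, had 3.32, 3.504 and 3.11 at day 7 against 2.89 and 2.98 in the slide 1 day 0 samples. Day 3 had 3.24, 3.19 and 3.30. On slide 2, day 14 had 3.33, 3.51, 3.33 and 3.39 against 3.15, 3.41, 3.35 and 3.30 at day 0. The slide 1 groups were separate and the slide 2 groups overlapped. The rise at day 7 was 0.36 ± 0.12 (adjusted p = 0.0414), a 1.28-fold difference. At day 3 the difference was 0.30 ± 0.12 (adjusted p = 0.142), and at day 14 it was 0.08 ± 0.09 (adjusted p = 0.651). Without the slide 1 day 0 arrays, the day 7 difference was 0.01, but that fit sets slide 1 against slide 2 with no slide term. The call held in 4 of 12 processing alternatives and in 5 of the 14 fits that each left out 1 RNA sample, with differences of 0.27 to 0.46.

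Mvk, the mevalonate kinase, had 2.55, 2.59 and 2.72 at day 3 and 2.86, 2.79 and 2.65 at day 7 against 2.34 and 2.34 at day 0 on slide 1. On slide 2 it had 2.94, 2.88, 2.77 and 2.81 at day 14 against 2.53, 2.80, 2.67 and 2.69 at day 0. By this probe Mvk rose at day 7 by 0.43 ± 0.11 (adjusted p = 0.0135). A second Mvk probe, above background on all 16 arrays, gave a difference of -0.63 on slide 1, so the direction of Mvk depends on the probe. With both probes averaged the difference was -0.11, and without the slide 1 day 0 arrays it was 0.09. The call held in 8 of 12 processing alternatives and was also lost without day 7 sample 1 (0.38) and without day 0 sample 2 (0.39).

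The other 4 early enzymes passed in no comparison. Acat2, which joins acetyl-CoA units, had a day 3 difference of -0.48, and Mvd, the mevalonate diphosphate decarboxylase, had -0.67. Pmvk, the phosphomevalonate kinase, and Fdps, the farnesyl diphosphate synthase, had 0.09 and 0.27. Mvd had 1.22, 1.29 and 1.12 at day 3 and 1.105, 1.24 and 1.15 at day 7 against 1.85 and 2.21 at day 0 on slide 1. The slide 2 values were 0.68, 0.45, 0.61 and 1.27 at day 14 against 1.45, 1.63, 0.74 and 0.95 at day 0. Mvd values of days 3 and 7 were thus below those of day 0 on slide 1, where the adjusted p was 0.121 at day 3 and 0.0558 at day 7.

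The late sterol enzymes run from farnesyl diphosphate to cholesterol. Of 11, 1 was lower at day 3 (all features: 3.82%). At day 7, 2 were higher and 1 lower (all features: 15.6% and 8.14%), so these counts are near the background. Sqle, the squalene epoxidase and an oxygen-consuming enzyme, had -0.45, -0.32 and 0.43 at day 3 and -0.86, -1.01 and -1.04 at day 7 against -1.26 and -0.86 at day 0 on slide 1. On slide 2, day 14 had -1.19, -0.67, -1.08 and -1.09 against -0.85, -0.66, -0.39 and -2.01 at day 0, the last not above background. The 3 day 3 values were above every other slide 1 value. The day 3 difference of 1.04 ± 0.37 did not pass (adjusted p = 0.0995), nor did day 7 against day 3, at -0.85 ± 0.34 (adjusted p = 0.257).

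Lss, the lanosterol synthase, had -2.98, -2.93 and -2.91 at day 3 and -2.94, -3.17 and -3.16 at day 7 against -2.49 and -2.18 at day 0 on slide 1. Every slide 1 value was above background. On slide 2 it had -3.05, -2.93, -2.87 and -2.97 at day 14 against -3.31, -2.87, -2.98 and -3.15 at day 0, none of them above background. Lss fell by 0.61 ± 0.13 at day 3 (adjusted p = 0.0217) and by 0.76 ± 0.13 at day 7 (adjusted p = 0.00326). Both calls rest on the 2 day 0 arrays of slide 1. Without them the differences were 0.14 at day 3 and -0.01 at day 7. That fit sets slide 1 against slide 2 with no slide term, and no slide 2 value was above background. The day 3 call was also lost without day 0 sample 1 (-0.71), day 0 sample 2 (-0.53) or day 3 sample 2 (-0.62), and the day 7 call without day 0 sample 2 (-0.67). Of 11 processing alternatives the day 3 call held in 5 and the day 7 call in 7. With normexp background correction both were lost, at -0.18 and -0.20.

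Hsd17b7, a sterol ketoreductase, had -2.43, -2.31 and -1.77 at day 3 and -2.07, -1.78 and -1.57 at day 7 against -2.85 and -3.04 at day 0 on slide 1. On slide 2 it had -2.32, -3.71, -2.86 and -3.04 at day 14 against -2.42, -2.58, -2.63 and -3.26 at day 0, none of them above background. The day 0 group was above background on 1 of its 6 arrays, and Hsd17b7 passed the filter on dim probes through days 3 and 7, the days where it was high, so the size of the difference is not well measured. The fitted difference at day 7 was 1.24 ± 0.33 (adjusted p = 0.0170), and no fold is given. Its second probe, above background on 8 arrays, differed by 0.10 on slide 1. The call held in 11 of 11 alternatives to the processing, but the difference ranged over them from 0.33 with normexp background correction to 1.32. It was lost without day 0 sample 1 (1.34), day 0 sample 2 (1.20) or day 7 sample 2 (1.22). At day 3 the difference was 0.88 ± 0.33 (adjusted p = 0.119).

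Sc5d, the sterol desaturase, is another oxygen-consuming enzyme. It had 0.98, 1.07 and 0.93 at day 3 and 0.91, 1.11 and 0.84 at day 7 against 0.45 and 0.55 at day 0 on slide 1. On slide 2 it had 0.70, 1.05, 0.78 and 0.75 at day 14 against 0.62, 0.51, 0.69 and 0.83 at day 0. Both slide 1 days were above day 0, and the slide 2 groups overlapped. The rise at day 7 was 0.41 ± 0.13 (adjusted p = 0.0356), and the day 3 difference of 0.45 ± 0.13 did not pass (adjusted p = 0.0571). The day 7 call was lost without day 7 sample 1 (0.43), day 7 sample 2 (0.33), day 0 sample 1 (0.33) or day 0 sample 2 (0.46). It held in 6 of 12 processing alternatives, and the difference was smallest, at 0.24, with normexp, where the call was lost.

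The other 7 late enzymes passed in no comparison. Msmo1, the methyl sterol oxidase, had 0.76, 0.73 and 1.33 at day 3 and 0.87, 0.87 and 0.66 at day 7 against 0.27 and 0.52 at day 0 on slide 1. Ebp, a sterol isomerase, had 3.04, 3.06 and 3.43 at day 3 and 3.31, 3.51 and 2.85 at day 7 against 2.87 and 2.65. In both genes all values of days 3 and 7 were above those 2 day 0 values, except the lowest Ebp value of day 7, which lay between them. Nsdhl, which removes a sterol carboxyl group, was not above background on any day 14 array and was above it on all 4 day 0 arrays of slide 2, but the arrays differed in their limit. The lowest level above background was -1.96 to -1.84 on day 14 arrays and -2.46 to -2.06 on the day 0 arrays of that slide. The Nsdhl values there were -1.84, -2.10, -2.51 and -2.77 at day 14 against -1.88, -1.25, -1.61 and -1.59 at day 0, so the array values overlapped. With the arrays of day 0 sample 1 averaged after slide adjustment (-1.77), the groups were separate by a small margin. The fitted Nsdhl difference at day 14 was -0.72 ± 0.21 and did not pass (adjusted p = 0.103). Dhcr7, the enzyme of the last step, was above background on 7 arrays of slide 1 and 1 of slide 2. On slide 1 it had -2.82 to -1.94 at day 3 and -3.27 to -1.80 at day 7, all below the day 0 values of -0.94 and -0.78. Its differences from day 0 were -1.46 ± 0.75 at day 3 (adjusted p = 0.239) and -1.60 ± 0.75 at day 7 (adjusted p = 0.140). Fdft1, the squalene synthase, Tm7sf2, a sterol reductase, and Cyp51, the lanosterol demethylase, had day 3 differences of -0.19, 0.24 and 0.75. The direction of Tm7sf2 depends on the probe: on slide 1 the second, above background on 13 arrays, gave -0.47 at day 3 and -0.54 at day 7, where the first gave 0.28 and 0.25. Cyp51 was above background on 1 of 6 day 0 arrays, so the size of its difference is not well measured.

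**Figure D2:**
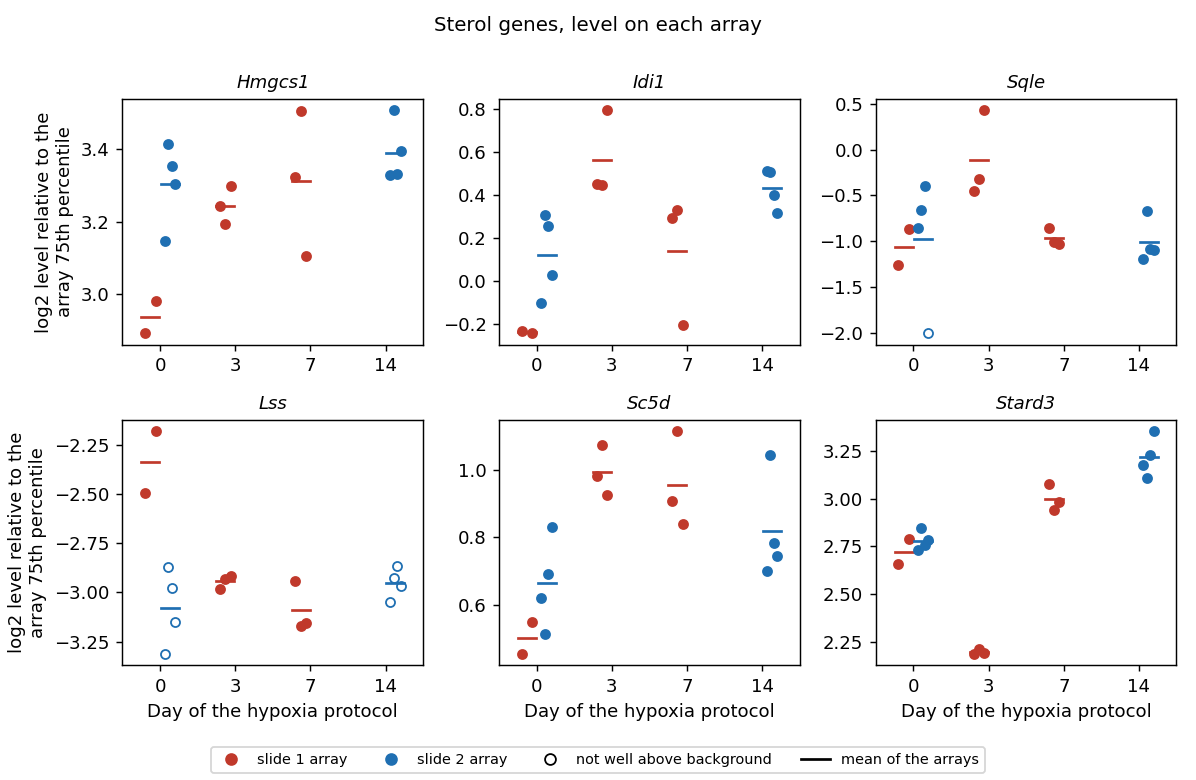
Level of 6 sterol genes on each of the 16 arrays by day, as log2 relative to the array's 75th percentile. Red points are slide 1 arrays, blue points slide 2 arrays, open points are not well above background, and bars are means. Stard3 at day 3 lies between 2.19 and 2.21, below all other arrays, and its day 14 values, from 3.11 to 3.35, lie above all day 0 values.

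The regulators passed in no comparison. Srebf1 encodes the SREBP form tied to fatty acid synthesis. It had -1.12, -1.47 and -1.21 at day 3 and -1.30, -1.70 and -1.48 at day 7 against -1.03 and -1.22 at day 0 on slide 1, and -1.11, -1.17, -1.35 and -1.21 at day 14 against -1.01, -1.69, -0.94 and -1.18 at day 0 on slide 2. Its difference at day 7 was -0.43 ± 0.19 (adjusted p = 0.120) and at day 14 it was -0.0042 ± 0.15 (adjusted p = 0.991). Srebf2, tied to sterol synthesis, had -1.41, -1.45 and -1.14 at day 3 and -1.98, -1.90 and -1.89 at day 7 against -1.46 and -1.34 at day 0 on slide 1. All 3 day 7 values were lowest there. The difference at day 7 was -0.55 ± 0.28 (adjusted p = 0.183). A second Srebf2 probe, above background on 5 arrays, gave -1.02 at day 3 and -0.98 at day 7 against day 0 on slide 1. The first probe gave 0.07 and -0.53 there. For day 7 against day 3 the second gave 0.04 and the first -0.59, so the course from day 3 to day 7 depends on the probe. On slide 2 Srebf2 had -1.89, -3.18, -2.27 and -1.85 at day 14, none above background, against -1.87, -1.89, -1.60 and -1.98 at day 0, all above it. The groups overlapped, and the background limit was higher on the day 14 arrays, as given with Nsdhl.

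Insig1, which retains SREBP and is itself one of its targets, had -1.12, -0.88 and -1.04 at day 3 and -1.72, -2.17 and -0.99 at day 7 against -1.95 and -1.19 at day 0 on slide 1. The slide 2 values were -1.02, -0.98, -0.85 and -1.49 at day 14 against -1.27, -0.44, -0.51 and -1.02 at day 0. Day 7 spread over more than 1 log2 unit, and its groups overlapped with day 0. The differences were 0.54 ± 0.31 at day 3 (adjusted p = 0.298), -0.08 ± 0.31 at day 7 and -0.28 ± 0.25 at day 14.

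Stard3, a sterol transfer protein of late endosomes at their contacts with the endoplasmic reticulum, varied little between samples of one day. On slide 1 it had 2.19, 2.21 and 2.19 at day 3 and 3.08, 2.94 and 2.98 at day 7 against 2.66 and 2.79 at day 0. On slide 2 it had 3.17, 3.11, 3.23 and 3.35 at day 14 against 2.73, 2.85, 2.76 and 2.78 at day 0. No value of day 3, day 7 or day 14 lay within the day 0 range of its slide. After slide adjustment the means were 2.26 ± 0.0146 for the 3 samples of day 3 and 3.06 ± 0.0697 for the 3 of day 7 (SD). They were 3.22 ± 0.104 for the 4 samples of day 14 and 2.78 ± 0.0527 for the 4 of day 0.

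Stard3 fell by 0.52 ± 0.09 at day 3 against day 0 (adjusted p = 0.0149), to 0.698 times the day 0 level. It rose by 0.28 ± 0.09 at day 7 (adjusted p = 0.0436) and by 0.44 ± 0.07 at day 14 (adjusted p = 0.0326), each against day 0. Day 7 exceeded day 3 by 0.80 ± 0.09 (adjusted p = 0.00146), or 1.74-fold, with no slide between them. Day 14 against day 7 differed by 0.15 ± 0.11 (adjusted p = 0.433, 95% interval -0.08 to 0.39). The call of day 7 against day 3 held in 14 of 14 fits that left out 1 sample (0.76 to 0.83) and in 11 of 12 processing alternatives. Within slide 1 alone, with fewer arrays, the adjusted p was 0.111. The day 3 call was lost without day 0 sample 1 (-0.57) or day 0 sample 2 (-0.47). The calls at day 7 and day 14 held in 4 and 5 of 14 such fits, with differences of 0.24 to 0.33 and 0.39 to 0.47. Over the 12 processing alternatives they held in 4 and 7, with differences of 0.13 to 0.28 at day 7, the smallest with normexp, and of 0.36 to 0.46 at day 14. The day 3 call held in 11 of those 12.

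Stard4, a cytosolic sterol transfer protein, passed in no comparison. Its levels were -0.76, -0.44 and -0.26 at day 3 and -0.37, -0.72 and -0.68 at day 7 against -1.14 and -0.62 at day 0 on slide 1. On slide 2 they were -0.37, -0.21, -0.88 and -0.50 at day 14 against -1.17, -0.63, -0.94 and -0.84 at day 0. The day 14 difference was 0.40, and the groups overlapped.

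**Figure D3:**
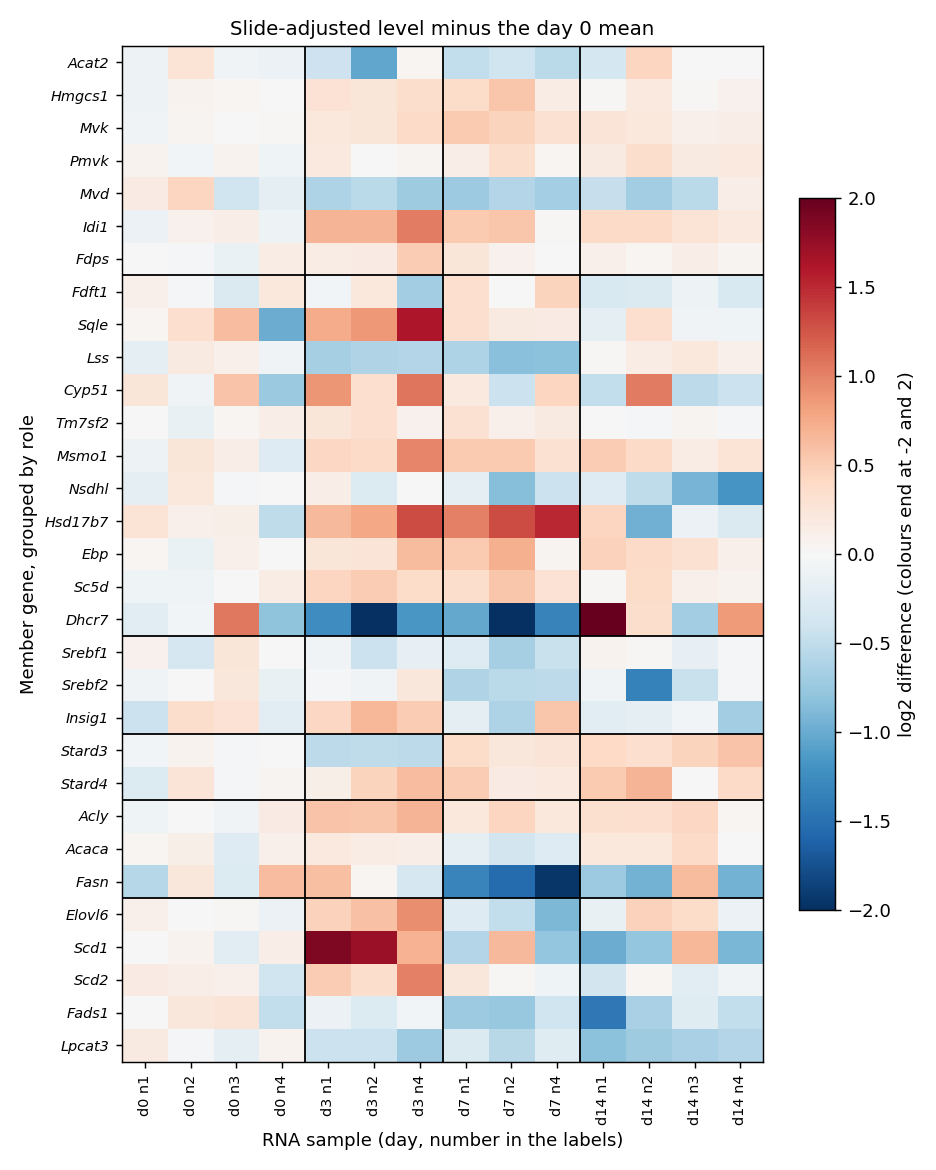
Slide-adjusted level of the 31 tested members in each of the 14 RNA samples, as log2 difference from the gene's day 0 mean, with days in columns and roles in row blocks. Colours end at -2 and 2, and low genes such as Dhcr7, Cyp51, Hsd17b7, Lss, Nsdhl, Srebf2 and Fasn are partly below background on slide 2. The Stard3 row is blue in all 3 day 3 samples and red in all day 7 and day 14 samples.

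Acly, the citrate lyase that supplies acetyl-CoA in the cytosol, had 2.87, 2.86 and 2.98 at day 3 and 2.52, 2.73 and 2.52 at day 7 against 2.27 and 2.28 at day 0 on slide 1. The slide 2 values were 2.88, 2.90, 2.97 and 2.60 at day 14 against 2.42, 2.58, 2.49 and 2.73 at day 0. Days 3 and 7 were separate from day 0, with day 3 the highest, and day 14 overlapped with day 0. The rise at day 3 was 0.60 ± 0.13 (adjusted p = 0.0226), or 1.52-fold. Day 7 and day 14 differed from day 0 by 0.29 ± 0.13 (adjusted p = 0.110) and 0.29 ± 0.10 (adjusted p = 0.147). A second Acly probe, above background on 7 arrays, had a day 3 difference of 0.27 on slide 1 and -0.24 at day 7. The day 3 call held in 7 of 12 processing alternatives. It was lost with the probes averaged (0.41), without the slide 1 day 0 arrays (0.35), and without day 0 sample 1 (0.62), day 0 sample 2 (0.58) or day 3 sample 2 (0.63).

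Acaca, the carboxylase that makes malonyl-CoA, passed in no comparison. It had 3.34, 3.29 and 3.28 at day 3 and 2.95, 2.78 and 2.88 at day 7 against 3.23 and 3.17 at day 0 on slide 1. The day 7 values were the lowest on that slide, with a difference from day 0 of -0.29 ± 0.14 (adjusted p = 0.141). A second probe had -0.39 for day 7 on slide 1, and 0.44 for day 3 where the first had 0.10.

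Fasn, the fatty acid synthase, had -0.44, -1.01 and -1.39 at day 3 and -2.36, -2.59 and -2.99 at day 7 against -1.44 and -0.89 at day 0 on slide 1. On slide 2, day 14 had -2.55, -2.76, -1.19 and -2.77, only the third above background. Day 0 had -2.56, -1.54, -2.10 and -1.20 there, the first of them not above background. All day 7 values were below all other slide 1 values. Fasn fell by 1.57 ± 0.46 at day 7 against day 0 (adjusted p = 0.0251), to 0.336 times the day 0 level, and the difference within slide 1 was -1.48 (adjusted p = 0.0424). Day 7 against day 3 was -1.70 ± 0.42 (adjusted p = 0.0868). No difference of day 14 from day 7 is given, since 1 of 4 day 14 arrays was above background. The day 7 call held in 8 of 11 processing alternatives, with the smallest difference, -0.54, under normexp, where the call held. It was lost without the slide 1 day 0 arrays (-0.80), without day 0 sample 1 (-1.73), day 0 sample 2 (-1.48), day 7 sample 2 (-1.60) or day 7 sample 4 (-1.40).

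Elovl6, which elongates palmitate, had -1.97, -2.20 and -2.61 at day 7 against -1.26, -1.13 and -0.78 at day 3, all on slide 1 and all above background. Day 0 had -1.72 and -1.65, between the groups. Elovl6 fell by 1.20 ± 0.20 at day 7 against day 3 (adjusted p = 0.0202), to 0.434 times the day 3 level. Against day 0 the differences were 0.65 ± 0.22 at day 3 (adjusted p = 0.0899) and -0.56 ± 0.22 at day 7 (adjusted p = 0.0815). On slide 2 the day 14 values of -1.50, -0.88, -0.98 and -1.46 overlapped the day 0 values of -1.15, -1.42, -1.32 and -1.45. The call was lost without day 3 sample 1 (-1.31), day 3 sample 4 (-1.07) or day 7 sample 2 (-1.24). It held in 9 of 12 processing alternatives and was lost, among others, within slide 1 alone and with no filter on dim probes, both at -1.20. The difference was smallest, at -0.47, with normexp, where the call held.

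Scd1, the main stearoyl-CoA desaturase of fat and liver, spread widely between samples of one day. It had 4.10, 3.95 and 2.92 at day 3 and 1.64, 2.88 and 1.46 at day 7 against 2.25 and 2.25 at day 0 on slide 1. On slide 2 it had 1.15, 1.36, 2.80 and 1.23 at day 14 against 2.12, 2.26, 1.93 and 2.27 at day 0. The day 3 values were the 3 highest of slide 1, while days 7 and 14 each held 1 sample above and the others below the day 0 range. None of its differences passed: 1.42 ± 0.48 at day 3 (adjusted p = 0.0925), -0.24 ± 0.48 at day 7, -0.51 ± 0.39 at day 14, and -1.66 ± 0.45 for day 7 against day 3 (adjusted p = 0.108).

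Adipocyte markers were high in the samples where Scd1 was high. Of the 11 genes of the adipocyte list 10 were tested, 9 of them above background on all arrays, among them Adipoq and Plin1, and none passed in any comparison. The mean level of the 10 was 2.30 to 3.13 in day 3 samples, 2.09 to 2.98 in day 7 samples, 1.60 to 2.64 in day 14 samples and 2.22 to 2.28 in day 0 samples, after slide adjustment. Their summed level on slide 1, on the log2 scale, was 8.08 to 8.66 at day 3, 8.04 to 8.70 at day 7 and 7.92 to 8.06 at day 0. The slide 2 values were 8.33 to 8.71 at day 14 and 8.13 to 8.44 at day 0.

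Over the 14 RNA samples the Scd1 level correlated with the marker mean, with Pearson's r of 0.889 (permutation test with 100000 resamples, adjusted p = 0.00016 over 8 relations) and Spearman's rho of 0.903 (adjusted p = 0.00056). Without the 2 samples farthest from the median, r was 0.76, and over the 8 arrays of each slide it was 0.858 on slide 1 and 0.863 on slide 2. The relation was chosen after the values were seen. The permutations ran over all samples without regard to day, so the p-values do not separate a shift shared by a day from a relation within days. Among the other 7 genes of fatty acid synthesis and modification none passed. Acly had r = 0.524 (adjusted p = 0.221) and Fasn r = 0.313 (adjusted p = 0.416). The part of adipocytes in the levels of the members was not tested.

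**Figure D4:**
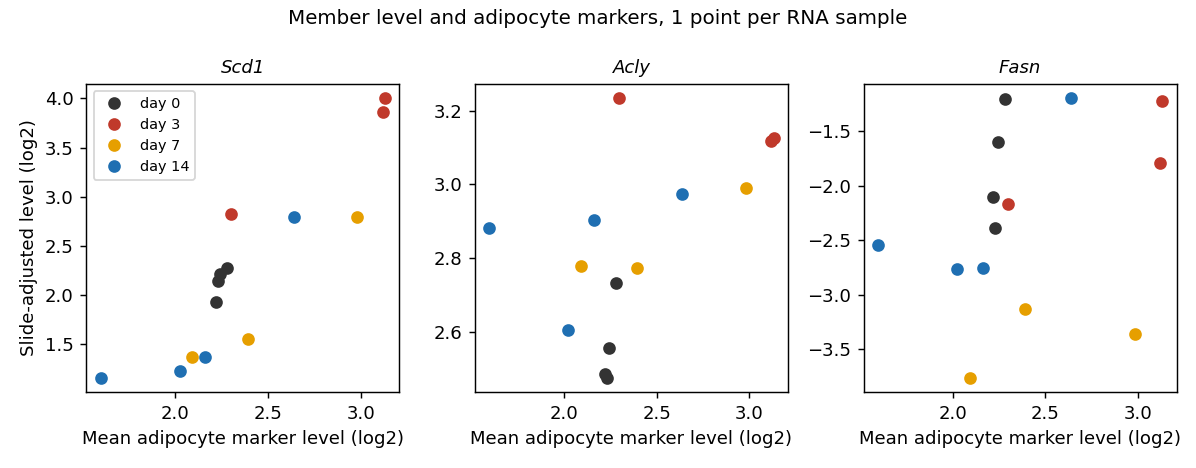
Slide-adjusted level of Scd1, Acly and Fasn (log2, vertical axes) against the mean log2 level of 10 adipocyte markers in the same RNA sample, 14 points a panel, coloured by day. Scd1 follows the marker mean across all 4 days (r = 0.889), and the day 0 points sit close together.

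Scd2, a desaturase of wider tissue range, had 2.48, 2.31 and 2.97 at day 3 and 2.20, 1.99 and 1.89 at day 7 against 2.09 and 2.05 at day 0 on slide 1. Day 3 was separate from day 0, with a difference of 0.60 ± 0.21 (adjusted p = 0.0962). On slide 2 day 14 had 1.52, 1.93, 1.66 and 1.82 against 2.11, 2.07, 1.99 and 1.49 at day 0, and the groups overlapped. Fads1, a desaturase of polyunsaturated fatty acids, had -2.29, -1.51, -1.11 and -1.36 at day 14 against -0.74, -0.67, -0.60 and -1.37 at day 0 on slide 2, the first not above background. Its day 14 difference was -0.72 ± 0.23 (adjusted p = 0.127).

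Lpcat3 places polyunsaturated fatty acids into phospholipids. It had 1.34, 1.45, 1.52 and 1.58 at day 14 against 2.33, 2.18, 1.96 and 2.23 at day 0 on slide 2. On slide 1 it had 1.93, 1.92 and 1.63 at day 3 and 2.07, 1.80 and 2.11 at day 7 against 2.53 and 2.27 at day 0. All values of the 3 later days were below the day 0 values of their slide. Lpcat3 fell by 0.70 ± 0.11 at day 14 (adjusted p = 0.0255), to 0.614 times the day 0 level, and by 0.54 ± 0.14 at day 3 (adjusted p = 0.0407). The day 7 difference of -0.38 ± 0.14 did not pass (adjusted p = 0.0691). The day 14 call was lost without day 0 sample 1 (-0.65), day 0 sample 2 (-0.70), day 14 sample 1 (-0.66) or day 14 sample 2 (-0.70). The day 3 call held in 5 of 14 fits that left out 1 sample, with differences of -0.63 to -0.42. Of 12 processing alternatives the day 14 call held in 9 (-0.79 to -0.58) and the day 3 call in 7 (-0.58 to -0.35).

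**Figure D5:**
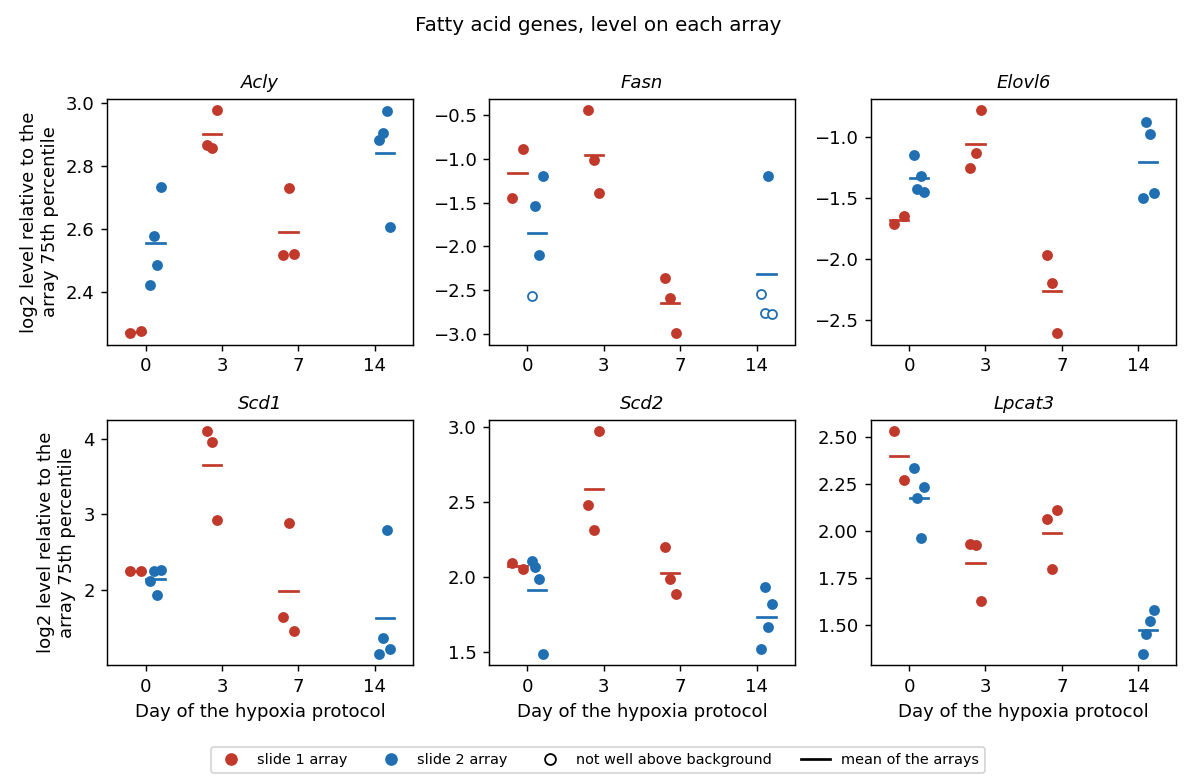
Level of 6 genes of fatty acid synthesis and modification on each of the 16 arrays by day, as log2 relative to the array's 75th percentile. Red points are slide 1 arrays, blue points slide 2 arrays, open points are not well above background, and bars are means. Fasn and Elovl6 are lowest on slide 1 at day 7, and Scd1 and Scd2 are highest at day 3. Lpcat3 at day 14 (1.34 to 1.58) is below every day 0 array of slide 2.

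Beside the members, 54 further genes of the same pathways were listed, and 49 were tested. At day 3 only Me1, the malic enzyme that supplies NADPH, passed, with a rise of 0.40 ± 0.11 (adjusted p = 0.0495), against 6.09% of all features. At day 7, 10 of 49 were higher and 7 lower (all features: 15.6% and 8.14%). At day 14 none passed against day 0 (all features: 0.402%). For day 7 against day 3, 1 was higher and 2 lower (all features: 0.447% and 0.23%), and for day 14 against day 7, 4 were lower (all features: 1.18%). Gpam, the first acyltransferase of triglyceride synthesis, had the largest rise of the 49 at day 7, by 1.24 ± 0.15 against day 0 (adjusted p = 0.00148) and by 1.09 ± 0.14 against day 3 (adjusted p = 0.00434). At day 14 against day 7 it fell by 1.15 ± 0.18 (adjusted p = 0.0165). Agpat3 and Agpat2, which add the next acyl chain, rose by 0.62 and 0.57 at day 7, and Mboat1, a lysophospholipid acyltransferase, fell by 0.47. Mboat1 also fell at day 7 against day 3, by 0.75 (adjusted p = 0.0202), and Agpat2 fell at day 14 against day 7, by 0.85 (adjusted p = 0.0449).

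Of the 10 genes of acetyl-CoA and malonyl-CoA supply, 3 were higher and 3 lower at day 7 against day 0, beside the same 15.6% and 8.14% of all features. Me1 rose by 0.68, Acacb, the carboxylase at mitochondria, by 0.68, and Mlycd, the malonyl-CoA decarboxylase, by 0.90, while Mid1ip1, an activator of acetyl-CoA carboxylase, fell by 0.63. At day 14 against day 7 Me1 fell by 0.77 and Mlycd by 1.11. Of 10 genes of elongation and desaturation, Hacd3, a dehydratase of the elongation cycle, rose by 0.54 at day 7. Hacd2, of the same enzyme family, fell by 0.42 against day 0 and by 0.55 against day 3 (adjusted p = 0.0454), and Tecr, the reductase of that cycle, fell by 1.09. Of the 4 genes of SREBP processing, Mbtps1, the site protease that starts SREBP cleavage, and Insig2 rose by 0.51 and 0.48 at day 7. Ggps1, the geranylgeranyl diphosphate synthase, rose by 0.45, and Npc2, a lysosomal sterol carrier, fell by 0.52.

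Other marker lists also held genes past the threshold between the same days. Of 13 tested clock genes, 1 was higher and 3 lower at day 3 against day 0, 2 were higher and 1 lower at day 7 against day 0, and 6 were higher and 1 lower at day 7 against day 3. The mean clock gene level on slide 1 was 0.67 to 0.98 at day 3, 1.68 to 2.21 at day 7 and 1.21 to 1.81 at day 0. Dbp, a transcription factor under clock control, fell by 2.30 ± 0.35 at day 3 (adjusted p = 0.00819) and rose by 3.26 ± 0.32 at day 7 against day 3 (adjusted p = 0.00146). At day 3 Nr1d1 and Per3 fell by 2.07 and 1.05. Tef and Cry2 rose by 0.99 and 1.01 at day 7 against day 0, where Nr1d1 fell by 0.97, and Tef and Per3 rose by 1.16 and 1.84 at day 7 against day 3.

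Of 8 tested macrophage markers 4 were lower at day 7 against day 0, among them C1qa, C1qb and C1qc of the complement system, with log2 differences of -1.62, -1.53 and -1.35. At day 7 against day 3 Mrc1 fell by 1.18 (adjusted p = 0.0494). The macrophage mean on slide 1 was -0.48 to -0.39 at day 7 and 0.32 to 0.97 at day 0. Of 7 slow fibre markers, 1 was lower at day 3 and 2 at day 7. On slide 1 Tnni1, a troponin of slow fibres, had 7.35 to 7.74 at day 3 and 6.96 to 7.60 at day 7 against 8.37 to 8.56 at day 0, and it fell by 0.87 and 1.05. Tnnc1 fell by 0.51 at day 7. Of 9 fast fibre markers, Mylpf fell by 0.72 at day 3 and Pvalb rose by 1.65 at day 7. Myh4, a fast myosin, had 9.27 to 9.60 at day 3 and 4.31 to 9.83 at day 7 against 2.81 to 5.27 at day 0 on slide 1, and its day 3 difference of 5.16 ± 1.57 did not pass (adjusted p = 0.0683). Of 7 endothelial markers, Tie1 fell by 0.95 at day 3, and at day 7 Tie1 and Pecam1 fell by 0.95 and 0.65. Differences from day 0 in the endothelial list were positive for 1 of the 7 at day 3, with a median of -0.19 (all features: 0.06). At day 7 they were positive for 3 of the 7, so the list did not move as a whole at that day. On slide 1 Kdr had 3.67 to 3.74 at day 7 against 3.44 to 3.51 at day 0. Cdh5 had 3.10 to 3.35 at day 7 against 2.88 to 3.11 at day 0. The shares of all features past the threshold are those given for the members. None of these marker lists had a gene past the threshold at day 14 against day 0 or against day 7. The part of the clock genes and of these cell and fibre types in the levels of the members was not tested.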

How the data were processed

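Soleus RNA of 14 samples was measured on 16 Agilent 1-colour (Cy3) arrays. Per the file headers, the deposited scanner files hold linear spot intensity from Agilent Feature Extraction 11.0.1.1, background-subtracted and not scaled between arrays. A series table, deposited as well, is on the intensity scale too. Its column medians lie between 45.1 and 46.4, how it was made is not given in the sources used here, and it served only as an alternative. Of 55681 probes, 37 lacked a value on some array and were left out, as were spots with an outlier mark. From log2 intensity the array's 75th percentile of non-control spots was subtracted, and the spots of a probe were averaged. RefSeq transcript accessions (GRCm38.p6) gave gene symbols to 27656 probes (49.7%), for 20972 genes, and the other 28025 probes had no symbol. The array design and this annotation use different assemblies, so probe coordinates are not given. A probe had to be well above background on 3 or more of the 16 arrays. The brightest remaining probe of a gene represented it, and 22126 features entered the tests.

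Tests in both directions used limma 3.58.1 (R 4.3.3, statmod 1.5.0), with fixed terms for day and slide and a random block for the RNA sample. Arrays of one RNA sample were thus treated as correlated and not as independent. The consensus correlation of 0.448 rests on day 0 samples 1 and 2, the only ones run on both slides. The fit had 11 residual degrees of freedom, counted over arrays and not over RNA samples, and 2.45 prior degrees of freedom. Benjamini-Hochberg adjustment ran over all features of a comparison, and the threshold was an adjusted p of 0.05. A difference is the later day minus the earlier, and SE stands for its standard error. Precision is limited by how many RNA samples there were. The fit was tested on simulated data. The alternatives were another treatment of the slide, quantile normalization, normexp background correction (offset 50) on the median spot signal, since the files hold no mean signal, the series table, the probe filter, the choice of probe, the replicate number as a block, trended and robust eBayes, and each RNA sample left out. The other software was Python 3.11.15 with SciPy 1.17.1, pandas 2.3.3, NumPy 2.4.6 and Matplotlib 3.10.9.

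The 32 members and the other lists were chosen with earlier results of these data known. By rule, values in every sample were given for members past the threshold in any comparison and for Hmgcs1, Sqle, Srebf1, Srebf2, Insig1, Fasn and Scd1. Of the other pathway genes and marker lists, those past the threshold were named, up to 4 and 3 per list and comparison. The remaining members whose values are given were chosen after the values were seen. Some genes of the pathways and marker lists are not reported here.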

Additional observations from a re-analysis of the deposited data

Results flagged for a closer look

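In 62 sets of 4 RNA samples (31 members at day 14 and at day 0), 6 held a sample far from the other 3. Chance gives about 1 in 20 for independent sets, but these sets share their RNA samples. The share over all features was not computed, so the count is not read as a result about the members. Values are log2 levels on slide 2. At day 14, sample 3 stood apart in 3 genes. Scd1 was at 2.80, with the others at 1.15 to 1.36. Fasn was at -1.19, with the others at -2.77 to -2.55 and not above background. Fdft1 was at 2.05, with the others at 1.84 to 1.87. The same sample had the highest mean adipocyte marker level of day 14, at 2.64 with the others at 1.60 to 2.16, and the part of adipocytes was not tested. Day 14 sample 2 stood apart in Pmvk, at 3.43 with the others at 3.26 to 3.28. It also did so in Cyp51, at -2.71 with the others at -4.28 to -4.18, none of the 4 above background. At day 0, sample 2 stood apart in Acat2, at -1.01 with the others at -1.54 to -1.46.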

How the results depend on the processing

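The number of members past the threshold moved with the processing, and the cause was not tested except where the construction of an alternative shows it. At day 3 the 5 calls became 1 with no slide term, 0 within slide 1 alone, 2 with no filter on dim probes, 9 with probes above background on all arrays and 13 with arrays averaged per RNA sample, a fit that does not count the degrees of freedom spent on the slide adjustment. At day 7 the 7 calls became 4 with no slide term, 4 without the slide 1 day 0 arrays, 4 with no filter and 13 with averaged arrays. At day 14 the 2 calls became 8 with no slide term, 0 within slide 2 alone, 1 without the slide 1 day 0 arrays, 1 with quantile normalization and 0 with no filter. For day 7 against day 3 the 2 calls became 0 within slide 1 alone, 4 with normexp and 1 with no filter. For day 14 against day 7 the 1 call became 5 with no slide term, 6 without the slide 1 day 0 arrays, 2 with normexp, 0 with probes above background on all arrays and 5 with averaged arrays. Days 14 and 7 lie on different slides, so that comparison had no fit within 1 slide.

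Leaving out 1 RNA sample gave 0 to 6 calls at day 3, 0 to 8 at day 7, 0 to 2 at day 14, 1 to 3 for day 7 against day 3, and 0 to 2 where day 14 was set against day 7. At day 3 there were 0 calls without day 0 sample 1 or 2 and 1 without day 3 sample 2. At day 7 there were 0 without day 0 sample 2, 2 without day 0 sample 1 or day 7 sample 2, and 3 without day 7 sample 1. At day 14 there were 0 without day 0 sample 1 or 2 or day 14 sample 1 or 2. In the fits without day 0 sample 1 or 2 the array correlation was kept from the full fit, since 1 sample was then on both slides.

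Samples of different days with the same number in the labels had correlations of their deviations of -0.159 to 0.169 over 19 pairs, of which 6 were over 0.1. The labels do not say whether samples with the same number belong together, and these correlations cannot settle it. With the replicate number as a block the calls were 4 at day 7, 0 at day 14, 1 for day 7 against day 3, and 2 where day 14 was set against day 7, and at day 3 the count stayed within 1.5 times. The block lost the calls of Lpcat3 at day 3, Hmgcs1, Sc5d and Stard3 at day 7, Stard3 and Lpcat3 at day 14, and Elovl6 at day 7 against day 3. Over the 17 differences that passed, 436 recomputations kept the direction and the call in 295, lost the call in 139 and turned the direction in 2. These were Lss at day 3, at 0.14 without the slide 1 day 0 arrays, and Mvk at day 7, at -0.11 with its probes averaged. The fit without the slide 1 day 0 arrays has no slide term, so its differences between slides mix day and slide. Of 33 differences that did not pass, 837 recomputations gave 14 calls. Signal over background limits Lss, Hsd17b7, Cyp51, Dhcr7, Nsdhl, Srebf2 and Fasn on slide 2.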
